A study of Mus musculus with 5 samples.

Results

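The immunoglobulin constant chain genes were followed through 5 single-cell RNA libraries of mouse lung. Their 10 members, of 28693 features in the matrices, were taken by gene symbol: the heavy-chain genes *Ighm*, *Ighd*, *Igha*, *Ighg1*, *Ighg2b* and *Ighg2c*, the light-chain genes *Igkc* and *Iglc2*, and the 2 antibody-assembly genes *Jchain* and *Mzb1*. All 5 libraries came from adult, tamoxifen-treated *Ms4a3-CreER;R26-tdT* mice of either sex on a mixed C57BL6/129 background. In these mice the *Ms4a3* promoter drives Cre, which the paper used to mark monocytes and their descendants with the reporter. The paper also states that neutrophils were affected when the same driver was used to ablate cells. The sham mice received PBS through the trachea, and the others received bleomycin, a DNA-damaging drug that injures and scars the lung, and were sampled 3, 7, 14 or 28 days later. Each group is 1 library, and the number of mice pooled in it was not given. A difference between time points therefore has no replicate check and was not tested, and the intervals given here are exact 95% intervals for counting error only.

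An antibody pairs heavy chains with light chains of either the kappa or the lambda kind, and the heavy-chain constant gene in use sets its class. Naive B cells carry IgM and IgD together on their surface, from 1 long transcript that is spliced to either *Ighm* or *Ighd*, while class switching replaces both with a gamma, epsilon or alpha gene. Plasma cells secrete antibody and devote a large part of their RNA to it, and IgA is the main class made at airway and gut surfaces. *Jchain* encodes the joining chain that links IgM and IgA into polymers, and *Mzb1* encodes an endoplasmic reticulum chaperone that helps IgM and IgA assemble.

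In the GRCm38 mouse genome with the GENCODE M21 annotation, the heavy-chain members lie on the minus strand of chromosome 12 between *Ighm* (chr12:113418558-113422730) and *Igha* (chr12:113254830-113260236). *Ighd* (chr12:113406604-113416324) is the next constant gene after *Ighm* in the direction of transcription, and the gamma members follow as *Ighg1* (chr12:113325240-113330523), *Ighg2b* (chr12:113302965-113307933) and *Ighg2c* (chr12:113285325-113288932). *Igkc* stands alone on the plus strand (chr6:70726435-70726966), and *Iglc2* (chr16:19198396-19200351) shares its locus with *Iglc3* (chr16:19065230-19065681) and *Iglc1* (chr16:19061618-19062071). The 3′ ends of the heavy-chain transcripts decide whether the protein is secreted or anchored in the membrane. The secreted forms of *Ighm* and *Igha* read on past the exon end used by the membrane form, and this coding stretch is shown because the classes that *Jchain* joins have it in common. The capitals mark the penultimate codon, a cysteine codon, whose side chain is the attachment point of the polymer. 
Ighm (chr12:113420870-113420928, minus strand): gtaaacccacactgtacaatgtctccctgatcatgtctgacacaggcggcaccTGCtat
Igha (chr12:113258771-113258829, minus strand): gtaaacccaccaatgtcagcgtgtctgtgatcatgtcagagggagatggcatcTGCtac
The tailpieces have 40 of 59 bases in common (67.8%). The secreted form of *Ighg1* runs only 5 coding bases beyond the shared exon end. Counts per gene do not separate secreted from membrane transcripts.

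The lambda genes are close copies, which bears on how far their counts can be read apart. *Iglc2* and *Iglc3* differed at 11 of 314 coding bases (96.5% identical). A stretch of 60 bases with 5 of the differences is shown, with the differing bases in capitals. 
Iglc2 (chr16:19198776-19198835, minus strand): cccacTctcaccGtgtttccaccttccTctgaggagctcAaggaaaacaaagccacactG
Iglc3 (chr16:19065605-19065664, minus strand): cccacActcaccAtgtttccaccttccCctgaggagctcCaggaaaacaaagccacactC
No 100-base window of *Iglc2* occurred in *Iglc3*, and none was shared by any pair among *Ighg1*, *Ighg2b* and *Ighg2c*, but a read that ends short of a difference does not tell the copies apart. The 129 strain carries an *Ighg2a* allele in place of *Ighg2c*, so counts of *Ighg2c* from mixed-background mice are uncertain.

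The libraries held 8971 to 12688 barcodes and 89769386 to 167506186 unique molecular identifiers (UMIs, counted as 1 per captured RNA molecule). The day 7 matrix had no barcode under 4624 UMIs, whereas the others went down to 500 to 502. After limits on genes, UMIs and mitochondrial share, 44772 barcodes were kept, 7757 to 10280 per library. The labels call the samples immune cells, although 1.28% to 5.19% of kept cells per library carried epithelial, endothelial or fibroblast markers. Library pairs shared 16 to 31 barcodes.

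Cells with at least 1 UMI of *Cd79a*, which encodes a signalling chain of the B cell receptor, are called Cd79a cells, and all others are the other cells. Cd79a cells numbered 584 in sham, 1103 at day 3, 584 on day 7, 206 at day 14 and 688 at day 28, which is 6.32%, 13.8%, 6.15%, 2.66% and 6.69% of kept cells. Of these, 21.95% to 28.7% had a single *Cd79a* UMI. Cd79a cells whose leading markers, none of them a member, were those of B cells, without the plasma-like cells (defined further on), are called B-like and made up 42.6% (day 7) to 71.5% (day 28) of the gate. Between 60 cells (day 14) and 334 cells (day 3) of the gate led with markers of another class. Cd79a cells were also shallower than the other cells, with median UMIs of 3830 to 11452 against 9829 to 14705. CPM here stands for UMIs of a member in every 1000000 UMIs of the summed cells; each molecule is counted once from its 3′ end, so levels are not scaled by length.

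IgM transcripts were abundant in Cd79a cells of every library. *Ighm*, the IgM heavy chain, stood at 995 CPM in sham (interval 968 to 1022), 1969 at day 3, 1383 on day 7, 1185 at day 14 and 2310 at day 28. In the other cells it stood at 23.5, 119, 45.6, 15.5 and 11 CPM in the same order. The lowest Cd79a level lay above the highest level of the other cells, and day 28 was highest on the first side and day 3 on the other. Within B-like cells *Ighm* was narrower in range, from 1696 CPM at day 7 to 2723 CPM at day 14.

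*Ighd*, the IgD heavy chain, was highest in sham. Its level in Cd79a cells was 463 CPM in sham, 337 at day 3, 118 on day 7, 173 at day 14 and 173 at day 28, against 0.365 to 2.79 CPM in the other cells. In B-like cells it was 1068 CPM in sham (interval 1025 to 1112), 657 at day 3, 229 on day 7, 383 at day 14 and 363 at day 28. All 4 bleomycin libraries lay below sham in both gates, and day 7 was the lowest.

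*Igha*, the IgA heavy chain, varied most between libraries among the abundant members. It reached 2242 CPM in sham, 703 at day 3, 2777 at day 7 and 1927 at day 14, but 44.3 CPM (interval 38.8 to 50.3) at day 28. In B-like cells it was only 11.6 to 87.1 CPM, and in the other cells 4.17 to 8.98 CPM. The level in B-like cells was thus a small part of the level in Cd79a cells everywhere but at day 28.

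The gamma genes, the heavy chains of IgG, were low. *Ighg1* gave 11 UMIs in sham, all in 1 cell, 31 at day 3 in 4 cells, 28 at day 7 in 3 cells, 20 at day 28 in 8 cells, and 0 at day 14, where 3 counts would be 1.16 CPM. *Ighg2b* stood at 1.34 CPM in sham, 408 at day 3, 22.5 on day 7, 23.6 at day 14 and 18.4 at day 28. At day 3, 1 cell held 4018 of its 4304 UMIs (93.4%). *Ighg2c* stood at 10.7, 7.40 and 463 CPM in sham, day 3 and day 7, was not detected at day 14 and was 2.05 CPM at day 28. At day 7, 72.8% of its UMIs came from 1 cell.

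Among the light chains, *Igkc* (kappa) was the highest member in every library. It stood at 9825 CPM in sham, 9335 at day 3, 15087 on day 7, 10008 at day 14 and 6038 at day 28, against 14.95, 68.8, 31.5, 8.03 and 8.36 CPM in the other cells. *Iglc2* (lambda) was 469, 504, 290, 252 and 470 CPM in the same order, against 0.476 to 6.17 CPM. Among the other cells both light chains were lowest at day 14 and highest at day 3.

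*Jchain* stood at 1015 CPM in sham, 443 at day 3, 1441 on day 7, 552 at day 14 and 485 at day 28 in Cd79a cells. In B-like cells it was 0.931 to 12.6 CPM, against 0.723 to 2.22 CPM in the other cells. *Mzb1* differed from it in being spread over B-like cells, at 285 to 456 CPM, against 183 to 285 CPM in all Cd79a cells and 0.429 to 10.4 CPM in the other cells. At day 3, where the other cells were highest, the 198 plasmacytoid dendritic cell-like cells described further on held 716 of their 803 *Mzb1* UMIs, 351 of 476 for *Iglc2*, 2753 of 5309 for *Igkc* and 2866 of 9190 for *Ighm*.

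**Figure D1:**
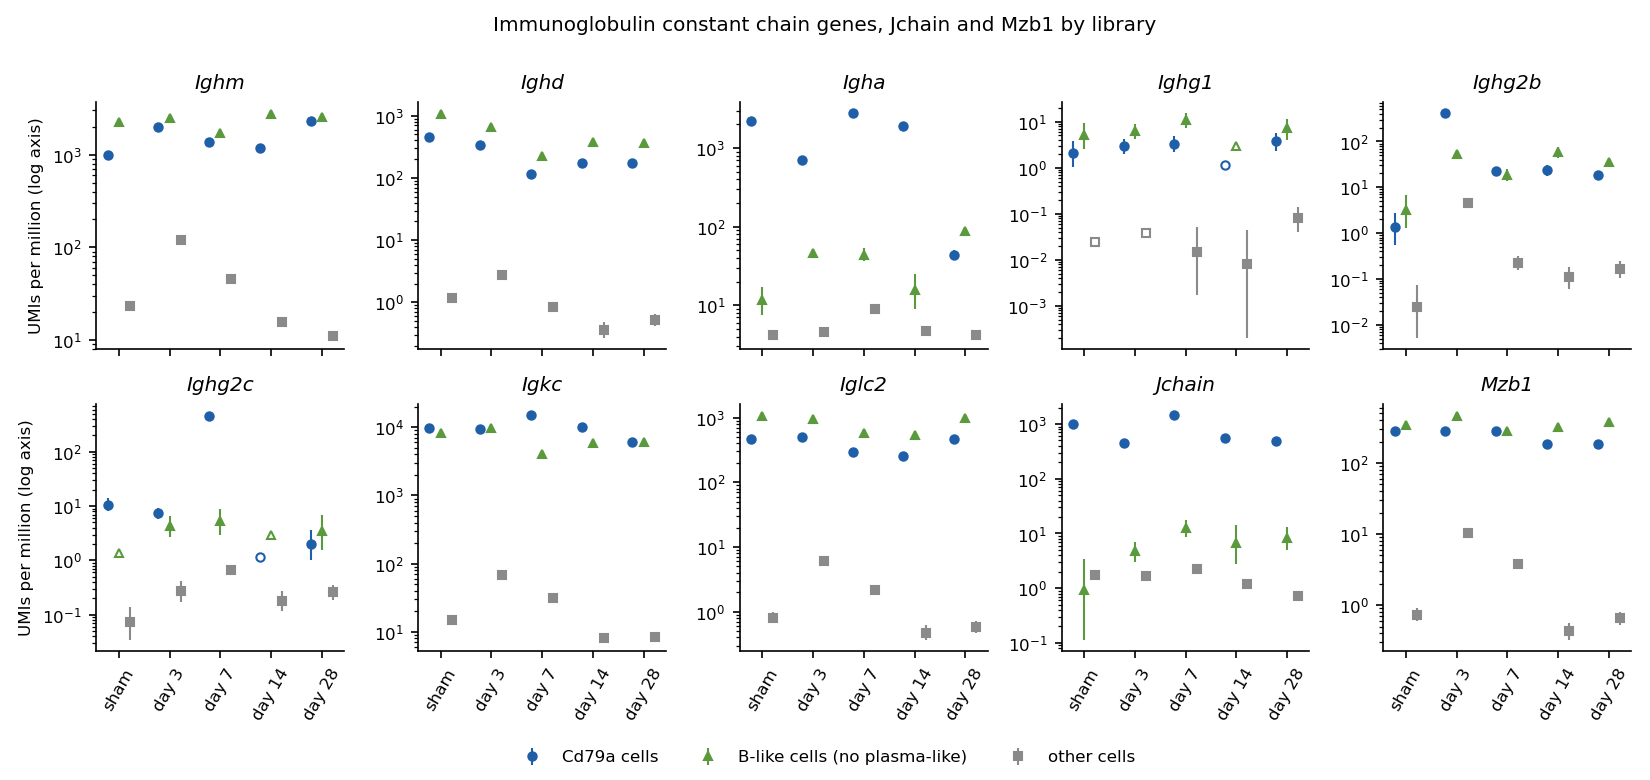
Level of each member (CPM, log axis) by library in Cd79a cells (blue circles), B-like cells (green triangles) and other cells (grey squares); bars are exact 95% Poisson intervals, which cover counting error only, and open symbols are libraries with 0 UMIs drawn at the level of 3 counts. *Igha* and *Jchain* in B-like cells sit far below their level in all Cd79a cells, except for *Igha* at day 28, where B-like cells reach 87.1 and Cd79a cells 44.3.

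A handful of plasma-like cells carried 46.7% to 85.6% of the member UMIs of Cd79a cells. These are Cd79a cells with at least 7 of 9 plasma cell markers (*Sdc1*, *Tnfrsf17*, *Prdm1*, *Derl3*, *Xbp1*, *Txndc5*, *Creld2*, *Pou2af1* and *Eaf2*), none of which is a member; the number 7 was chosen after the values were seen. A *Cd79a* UMI was required. Of the other cells, 1 each in sham and on days 7, 14 and 28 also had 5% or more of its UMIs from the members (highest 14.3%, at day 14). At day 28, 1 of the other cells held 113 of their 629 *Igha* UMIs, and at day 14, 1 held 55 of 152 *Jchain* UMIs. There were 4 plasma-like cells in sham, 4 at day 3, 19 on day 7, 4 at day 14 and 2 at day 28. As a share of kept cells, day 7 had 0.200% (interval 0.121 to 0.312) against 0.0433% in sham (0.0118 to 0.111), 0.04998% at day 3 (0.0136 to 0.128), 0.0516% by day 14 (0.0141 to 0.132) and 0.0195% for day 28 (0.00236 to 0.0703). The interval of day 7 overlapped those of day 3 and day 14 but not those of sham and day 28, and the day 7 matrix had a higher UMI floor. With 1 library per time point, a difference in this share was not tested. Cells just outside the limit, with 6 markers, gave at most 0.963% of their UMIs from the members. Those with 5 markers reached 5.14% (day 14) and those with 4 reached 9.33% (day 7), above the lowest plasma-like cell (6.84%). As the limit was chosen after the values were seen, these shares do not test it.

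The 33 plasma-like cells devoted 6.84% to 71.1% of their UMIs to the members, with a median of 37.0%. Among the classes called from the other marker lists, 5 of them led with B cell markers, 11 with those of another class and 17 with none; the cell at 6.84% led with fibroblast markers. Their medians by library were 2 to 3 of 11 B cell markers, 1 to 6.5 of 13 macrophage or monocyte markers (highest at day 14), 0.5 to 3 of 9 neutrophil markers and 0.5 to 1 of 8 T cell markers. Doublets were not removed, and their part in these shares was not tested. Together they held 63.2% of all member UMIs of Cd79a cells in sham, 46.7% at day 3, 85.6% on day 7, 69.9% at day 14 and 49.9% at day 28. Among the heavy-chain genes counted, 1 led clearly in each cell. In all 33, 1 heavy-chain gene held over 90% of the heavy-chain UMIs (lowest 92.9%), and in 26 it held over 99%. *Igha* was that gene in 24 cells, *Ighm* in 6, *Ighg2c* in 2 and *Ighg2b* in 1.

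The leading gene was counted by library. In sham all 4 plasma-like cells were *Igha* cells (interval for the share 39.8% to 100%), and at day 14 likewise all 4. Day 3 had 2 *Igha*, 1 *Ighm* and 1 *Ighg2b* cell, and day 7 had 14 *Igha*, 3 *Ighm* and 2 *Ighg2c* cells. Both day 28 cells were *Ighm* cells, and with 2 cells the interval for the *Igha* share there runs from 0% to 84.2%. The intervals of sham and day 28 overlapped. They take the cells of 1 library as independent, and with 1 library per time point a difference in the *Igha* share was not tested.

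All 33 cells were kappa cells, with over 90% of their *Igkc* and *Iglc2* UMIs from *Igkc*. A plasma-like cell held 321 to 16496 *Igkc* UMIs and at most 135 *Iglc2* UMIs (median 10). The number of *Igkc* UMIs per UMI of the cell's leading heavy-chain gene had a median of 3.04 and ranged from 1.14 to 49.3. The highest value came from a day 7 cell with 49 *Igha*, 2414 *Igkc* and 451 *Jchain* UMIs.

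*Jchain* was present in every plasma-like cell, at 29 to 2563 UMIs (median 654). Per heavy-chain UMI its median was 0.354 in *Igha* cells, 0.401 in *Ighm* cells, 0.282 in the pair of *Ighg2c* cells and 0.229 in the *Ighg2b* cell, so cells of IgG class, which forms no polymer, also held it. *Mzb1* gave 2 to 258 UMIs per plasma-like cell (median 51). *Ighd* was seen in 2 of the 33 cells and *Ighg1* in none.

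**Figure D2:**
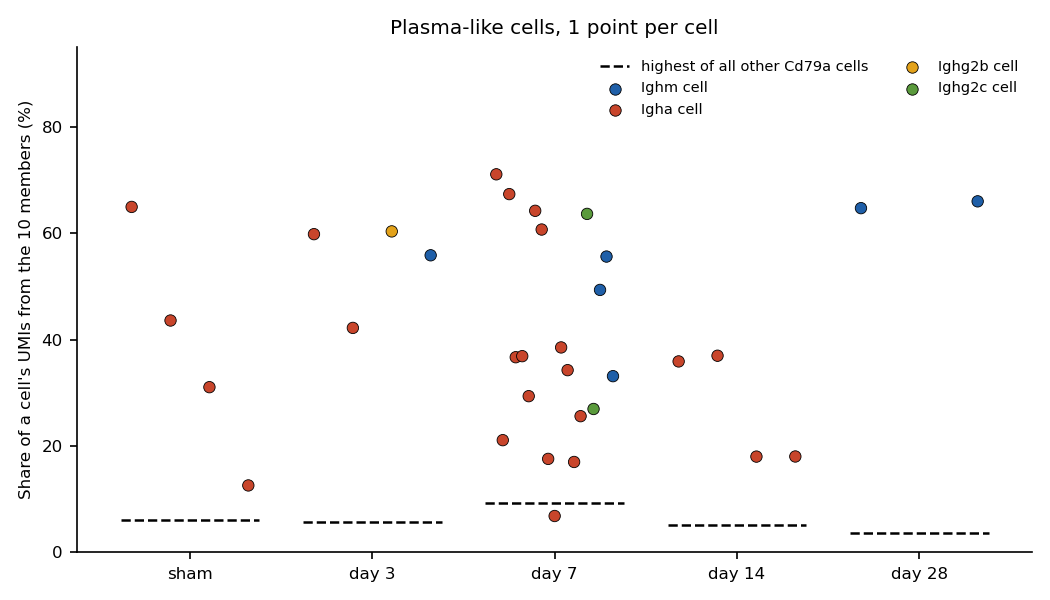
Share of each plasma-like cell's UMIs that came from the 10 members (%), by library, coloured by the heavy-chain gene that leads in the cell; the dashed line is the highest share among all other Cd79a cells of that library. Day 7 has 19 of the 33 cells, 1 of which (6.84%) lies under the line of its library (9.33%, a cell with 4 plasma markers), and the 2 cells of day 28 are *Ighm* cells.

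These cells held nearly all UMIs of some members and few of others. Plasma-like cells held 98.5% to 99.8% of *Jchain* UMIs of Cd79a cells in all 5 libraries, and 96.3% to 99.6% of *Igha* UMIs in the 4 libraries other than day 28, where they held 0%. For *Igkc* the share was 63.7% in sham, 46.3% at day 3, 87.8% on day 7, 74.3% at day 14 and 53.0% at day 28. For *Mzb1* it was 48.2%, 16.4%, 51.0%, 25.2% and 5.50%. At most 0.1% of *Ighd* UMIs came from them, and for *Ighm* the share ran from 0% in sham to 49.5% at day 28.

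The class balance over time was read with and without these cells. In all Cd79a cells, *Ighm* and *Ighd* together made up 39.3% of the UMIs of the 6 heavy-chain members in sham (interval 38.6 to 40.0), 67.3% at day 3, 31.5% on day 7, 41.0% at day 14 and 97.3% for day 28 (97.0 to 97.6). With cells under 4624 UMIs left out of every library, as in the day 7 matrix, the sham share was 21.58%, below day 7 and not above it. *Igha* took most of the remainder at 60.4% in sham, 58.3% at day 7 and 58.3% at day 14, but 20.5% at day 3 and 1.74% at day 28. Without the plasma-like cells, an alternative added after the values were seen, the *Ighm* and *Ighd* share was 99.1% in sham, 96.6% at day 3, 94.9% on day 7, 97.3% at day 14 and 95.1% at day 28. The swing of 31.5% to 97.3% between libraries thus shrank to one of 94.9% to 99.1%, and sham moved from below day 3 to the highest of the 5.

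Single B-like cells were also counted by the gene that led in them. Of B-like cells with at least 3 heavy-chain UMIs, *Ighm* and *Ighd* led in 407 of 409 in sham, 685 of 710 at day 3, 232 of 246 on day 7, 120 of 124 at day 14 and 435 of 462 at day 28. As shares these are 99.5% (interval 98.2 to 99.9), 96.5% (94.9 to 97.7), 94.3% (90.6 to 96.9), 96.8% (91.9 to 99.1) and 94.2% (91.6 to 96.1). *Igha* led in 1, 7, 7, 1 and 13 B-like cells, and *Ighg2b* in 0, 13, 3, 3 and 9. The share led by *Ighm* and *Ighd* was the highest in sham, and its interval did not overlap those of day 3, day 7 and day 28. These intervals take the cells of 1 library as independent, and a difference between time points was not tested.

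**Figure D3:**
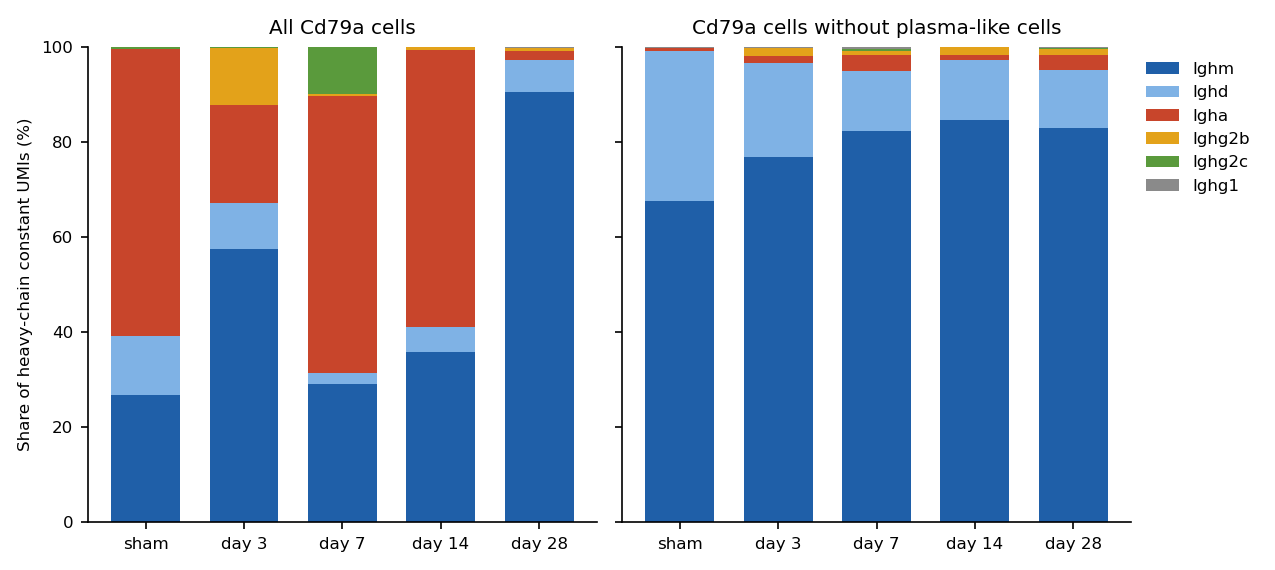
Share of heavy-chain constant UMIs (%) from each of the 6 heavy-chain members by library, in all Cd79a cells (left) and without the plasma-like cells (right). With them *Igha* makes up 60.4% in sham and 1.74% at day 28; without them *Ighm* and *Ighd* together make up 94.9% to 99.1% in every library.

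IgD was then set against IgM. The plasma-like cells held almost no *Ighd*. Of the *Ighm* UMIs of Cd79a cells they held 33.2% to 49.5% at days 3, 7 and 28, but 0% in sham and 2.13% at day 14. Without them *Ighd* gave 31.8% of the *Ighm* plus *Ighd* UMIs in sham (interval 30.7 to 32.8) and 20.4% at day 3 (19.8 to 21.01). It gave 13.3% on day 7 (12.6 to 14.1), 12.97% at day 14 (11.9 to 14.1) and 12.9% for day 28 (12.1 to 13.7). With the plasma-like cells the values were 31.8%, 14.6%, 7.85%, 12.7% and 6.96%, and in B-like cells 32.1%, 21.02%, 11.9%, 12.3% and 12.5%. In B-like cells and without the plasma-like cells the share was lower in each next library up to day 7, without overlap of these intervals. The intervals of the last 3 libraries overlapped. They take each UMI as independent, although UMIs are grouped within cells, and the change over time was not tested. Both genes were detected in 94.9% of B-like cells with at least 3 heavy-chain UMIs in sham, 87.5% at day 3, 71.1% on day 7, 76.6% at day 14 and 67.7% at day 28. The median depth of B-like cells was 4148, 5794, 7683, 5418 and 3308 UMIs in that order. Days 3, 7 and 14 were thus deeper than sham, and day 28, with the lowest share, was shallower. The part of depth in these shares was not tested.

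Kappa transcripts outnumbered *Iglc2* throughout. *Igkc* made up 95.4% of *Igkc* plus *Iglc2* UMIs in Cd79a cells of sham (interval 95.3 to 95.6), 94.9% at day 3, 98.1% on day 7, 97.5% at day 14 and 92.8% at day 28. Without the plasma-like cells it made up 88.7%, 91.1%, 88.6%, 91.7% and 86.5%, lower in each library. The order of the libraries changed with them: day 7 was the highest with the plasma-like cells, and without them it lay between day 28 and sham.

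Most B-like cells held UMIs of both light-chain kinds. Of B-like cells with at least 10 light-chain UMIs, here with *Iglc1* and *Iglc3* included, 98.3% in sham, 97.0% at day 3, 95.5% on day 7, 91.8% at day 14 and 95.4% at day 28 had a lambda UMI. The median kappa share per cell was 84.6%, 89.5%, 81.0%, 88.1% and 81.3%, on a median of 4.50 to 9.00 lambda UMIs. Cells with over 90% lambda UMIs were few, at 8 of 401, 17 of 708, 9 of 247, 2 of 122 and 17 of 431. Over all B-like cells of a library, whatever their light-chain count, *Iglc2* supplied 47.2% to 52.4% of the lambda UMIs.

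The next comparison asked how far the members mark Cd79a cells within a library. Summed counts of Cd79a cells and of other cells were set against each other in each of the 5 libraries with edgeR, with the library as a block, over 15686 genes. All 10 members were higher in Cd79a cells, where 12.2% of all genes tested were higher and 18% were lower. *Cd79a*, the gating gene, acts in the same receptor, so the gate and the members are not independent markers of a B cell.

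The light chains and *Jchain* had the largest differences. *Igkc* was higher by 9.09 on the log2 scale (SE 0.50, adjusted p = 1.782e-05), *Jchain* by 9.01 (SE 0.22, adjusted p = 1.842e-07) and *Iglc2* by 8.17 (SE 0.55, adjusted p = 6.221e-05). *Ighd* was the heavy-chain gene with the largest difference at 7.95 (SE 0.33, adjusted p = 2.526e-06), and *Igha* followed at 7.67 (SE 0.89, adjusted p = 0.00067). *Mzb1* was higher by 7.17 (SE 0.63), *Ighg1* by 6.94 (SE 0.79), *Ighg2b* by 6.75 (SE 0.17) and *Ighg2c* by 6.68 (SE 1.12), with adjusted p-values up to 0.00268. The *Ighg2c* value was 4.36 without day 7 (adjusted p = 0.0156), 7.59 without day 28 and 4.96 under DESeq2. Without day 28 *Igha* stood at 8.38 and *Ighg1* at 7.95, and without day 3 *Mzb1* stood at 7.81. *Ighm* had the smallest difference of the 10, at 5.67 (SE 0.50, adjusted p = 0.00024), with 11 to 119 CPM in the other cells. Without the Cd79a cells that led with markers of another class, the 10 values ran from 6.50 for *Ighm* to 9.96 for *Igkc*.

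Without the plasma-like cells all 10 members stayed higher, but the sizes split. *Ighd* stood at 7.97, *Iglc2* at 8.08, *Igkc* at 7.40, *Ighg1* at 6.96, *Mzb1* at 6.61, *Ighg2b* at 5.41 and *Ighm* at 5.24 on the log2 scale. *Ighg2c* dropped to 2.37 (adjusted p = 0.0134), *Igha* to 2.22 (adjusted p = 0.00102) and *Jchain* to 1.65 (adjusted p = 0.0108). With sums of each library left unblocked, 8 of the 9 members then tested passed, and *Ighg2b* did not (6.66, adjusted p = 0.103).

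Genes that act with the members moved as follows in the same fit, in which the median over all genes was -0.08. Of 17 B cell receptor signalling genes besides *Cd79a*, 11 were higher and 1 was lower (median 0.46). They included the complement receptor *Cr2* (7.89), *Cd79b* (7.38), the partner of *Cd79a*, and the kinase *Blk* (3.59), while the inhibitory receptor *Fcgr2b* was lower (-0.34). Of 18 plasma cell and secretory genes, 7 were higher and 1 was lower (median 0.14), with *Pou2af1* (8.003), *Tnfrsf17* (5.45), *Eaf2* (4.31) and *Derl3* (2.97) the largest. The one that was lower was *Xbp1* (-0.31), the secretory transcription factor that many lung cells express.

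Of the germinal centre and class switching genes, 11 of 12 were tested, 3 were higher and 1 was lower (median -0.02). *Rgs13* (6.27), *Bach2* (2.79) and *Cd40* (1.61) were the higher ones, and *S1pr2* (-0.69) was the lower one. Of 8 genes of B-1 and innate-like B cells, 2 were higher (*Zbtb32* 2.22, *Zcwpw1* 2.14) and 2 were lower (*Ahnak* -0.44, *Plscr1* -0.41), with a median of -0.27. Of the immunoglobulin receptors and transporters, 5 of 6 were tested, 3 were higher and 1 was lower (median 1.21). These were the IgM receptor *Fcmr* (8.53), the IgE receptor *Fcer2a* (8.14), the polymer transporter *Pigr* (1.21) and the neonatal Fc receptor *Fcgrt* (-0.50). The other constant genes *Iglc1* (8.98), *Ighg3* (6.90) and *Iglc3* (5.90) were all higher, and *Ighe* was not tested.

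Plasmacytoid dendritic cells (pDCs), which make type I interferon, are known to hold germline immunoglobulin transcripts. Cells without *Cd79a* whose leading markers were those of pDCs, with medians of 8 to 8.5 of 9 pDC markers and 0 to 1 of 11 B cell markers, numbered 35 in sham, 198 at day 3, 192 at day 7 and 30 at day 14. Day 28 had 6 and was left out. *Ighm* stood at 953, 1175, 762 and 1023 CPM in these libraries and was detected in 34 of 35, 198 of 198, 189 of 192 and 28 of 30 cells. Those levels lay below the B-like range of 1696 to 2723 CPM and above the 77.2 to 214 CPM of T cell-like cells.

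Other members were selective in pDC-like cells. *Igkc* stood at 165, 1129, 470 and 266 CPM, *Iglc2* at 5.51, 144, 91.6 and 90.7 CPM, and *Mzb1* at 132, 294, 209 and 62.4 CPM. *Iglc2* was detected in 1 of 35, 46 of 198, 44 of 192 and 4 of 30 cells. Its sham value is 2 UMIs, under the level of 3 counts (8.26 CPM), and at day 14, 1 cell held 18 of its 32 UMIs. *Iglc3*, which is no member but neighbours *Iglc2*, stood at 584, 806, 567 and 496 CPM, against 316 to 604 CPM in B-like cells. *Jchain* had 0 UMIs in sham and day 14 and reached 1.64 and 3.05 CPM at days 3 and 7, near the level of the other cells. *Igkc* was detected in 82.8% of pDC-like cells at day 3 and in 31.4% in sham, 53.7% at day 7 and 33.3% at day 14.

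Within the 4 libraries, pDC-like cells were compared with the other cells without *Cd79a* by the same edgeR fit over 14989 genes, where the median over all genes was -0.23. Of the 9 members tested 5 were higher and none was lower, beside 11.4% of all genes higher and 20.1% lower. *Mzb1* was higher by 8.06 (SE 0.23, adjusted p = 3.256e-08), *Iglc2* by 6.49 (SE 0.60, adjusted p = 4.727e-05), *Ighm* by 4.91 (SE 0.38, adjusted p = 1.523e-05), *Igkc* by 4.42 (SE 0.29, adjusted p = 4.753e-06) and *Ighd* by 3.78 (SE 0.70, adjusted p = 0.00248; 4.44 without day 3 and 2.91 without day 14). *Iglc3* was higher by 9.75 (SE 0.49, adjusted p = 1.088e-06). The values for the others were 1.62 for *Ighg2c*, 0.46 for *Igha*, -0.01 for *Ighg2b* and -0.10 for *Jchain*, with adjusted p from 0.177 to 0.997. *Ighg1* was too low to test, and *Iglc2* was detected in only 2.86% to 23.2% of pDC-like cells per library. The Cd79a gate and the pDC-like gate share their comparison cells in part, so the 2 sets of values stand side by side and were not correlated.

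**Figure D4:**
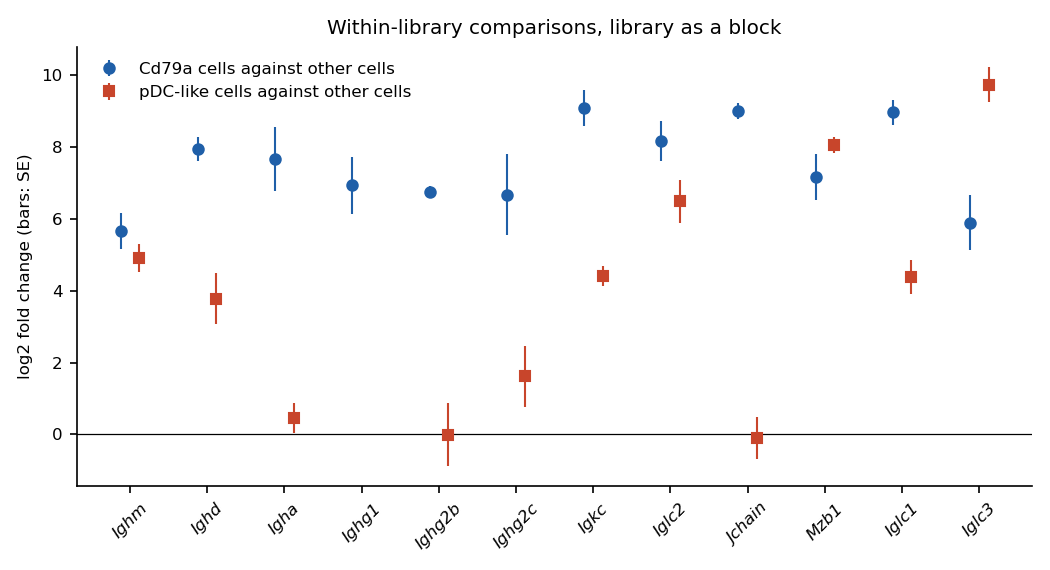
log2 fold change of each member, and of *Iglc1* and *Iglc3*, in Cd79a cells (blue circles, 5 libraries) and pDC-like cells (red squares, 4 libraries) against other cells; bars are standard errors of the edgeR fit. In the pDC-like comparison *Mzb1* and *Iglc3* stood at 8.06 and 9.75, while *Jchain* (-0.10) and *Igha* (0.46) lay near 0. In the Cd79a comparison *Mzb1* and *Iglc3* stood at 7.17 and 5.90, but its other cells include the pDC-like cells. The 2 sets of values thus have unlike baselines. By level, *Mzb1* was 62.4 to 294 CPM in pDC-like cells against 285 to 456 in B-like cells, and *Iglc3* 496 to 806 against 316 to 604. The difference between the comparisons was not tested.

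The members were also seen at low levels in classes that are not known to make antibody. *Ighm* stood at 77.2 to 214 CPM over the 5 libraries in T cell-like cells, 47.7 to 146 in NK cell-like cells, 40.6 to 159 in neutrophil-like cells, 22.9 to 97.2 in cDC-like cells (conventional dendritic cells) and 2.97 to 37.3 in macrophage or monocyte-like cells. The ranges of T cell-like, NK cell-like and neutrophil-like cells overlapped. *Igkc* was lower than *Ighm* in T cell-like cells, at 12.9 to 42.2 CPM.

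The ratio of *Ighm* to *Igkc* UMIs differed between classes of a library. In T cell-like cells it was 5.86 in sham, 5.06 at day 3, 3.27 on day 7, 5.97 at day 14 and 4.01 at day 28. In macrophage or monocyte-like cells it was 0.616, 1.35, 0.637, 0.730 and 0.697, and in Cd79a cells 0.101, 0.211, 0.0917, 0.118 and 0.383. The part of free RNA in the levels of each class was not tested.

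Cells with fewer than 2000 UMIs were then left out and the others thinned to 2000 UMIs each. The day 7 matrix, which began at 4624 UMIs, lost no cell by this. An *Ighm* UMI was found in 72.5%, 68.8%, 58.1%, 61.5% and 72.2% of Cd79a cells in sham and days 3, 7, 14 and 28. The share was 24.2%, 28.8%, 18.6%, 10.8% and 15.9% in T cell-like cells and 2.05%, 8.01%, 2.32%, 0.990% and 0.691% in macrophage or monocyte-like cells. Without thinning, at their own depths and with the shallower cells included, 77.4%, 79.2%, 77.9%, 71.8% and 79.5% of Cd79a cells and 47.1%, 59.7%, 51.4%, 24.7% and 27.7% of T cell-like cells had one. For *Igkc* the thinned shares were 73.1%, 71.0%, 73.3%, 68.5% and 77.2% of Cd79a cells, against 3.15%, 9.05%, 5.18%, 1.86% and 2.17% of other cells. The day 3 library had the highest share in the other cells for both genes.

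**Figure D5:**
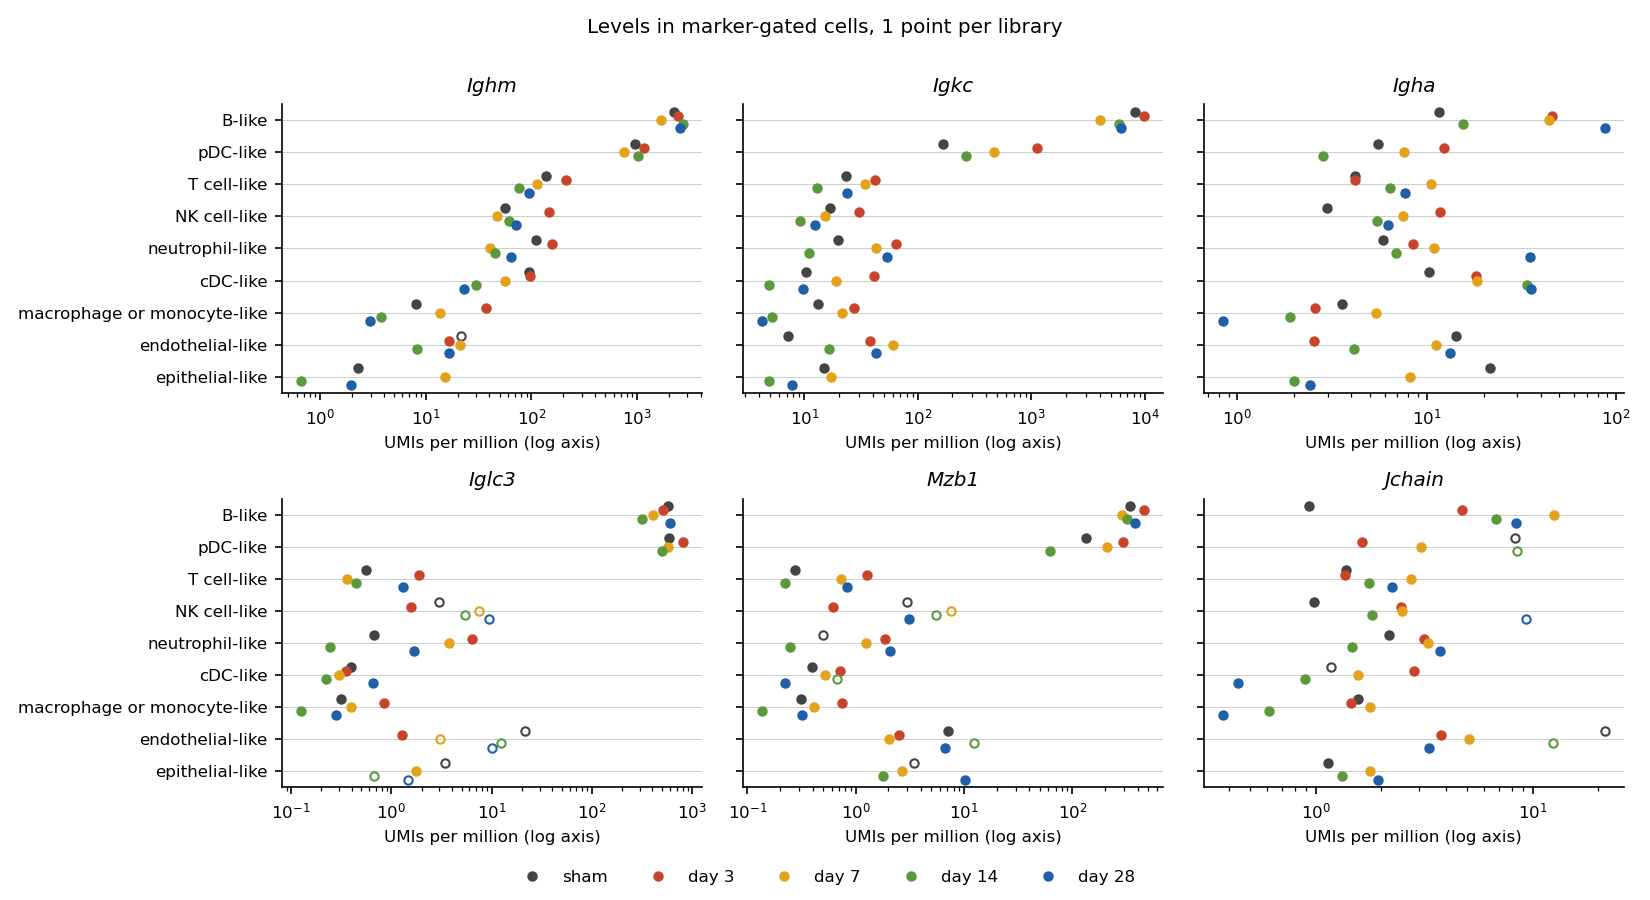
Level of *Ighm*, *Igkc*, *Igha*, *Iglc3*, *Mzb1* and *Jchain* (CPM, log axis) in 9 of the marker-gated classes, 1 point per library; open symbols are libraries with 0 UMIs drawn at the level of 3 counts. *Ighm* falls from B-like (1696 to 2723) over pDC-like (762 to 1175) to T cell-like cells (77.2 to 214), while *Jchain* stays at or under 12.6 in each class shown. The plasma-like cells, at 17832 to 64338 CPM of *Jchain*, are not among these classes.

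Likeness was taken as Pearson's r of log2(CPM + 10) over 48 sums of a class in a library, across 13357 genes that are neither immunoglobulin genes nor *Cd79a*. It describes these sums, which share libraries and depth, and in which all Cd79a cells of a library, B-like and plasma-like together, form 1 sum. *Igkc* was most like *Cd79b* (0.951), *Ighd* most like *Cd79b* (0.964) and *Bfsp2* (0.964), and *Jchain* most like *Pax5* (0.983) and *Pou2af1* (0.975). *Iglc2* was most like *Mzb1* (0.935), a member itself, and *Mzb1* most like *Gm43291* (0.936) and *Tnfrsf13c* (0.935). *Ighm* came closest to *Tnfrsf13c* (0.878) and *Cd37* (0.868), *Igha* to *Pax5* (0.9), *Ighg1* to *Fcmr* (0.878) and *Ighg2c* to *Eaf2* (0.690).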

How the data were processed

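Raw UMI counts per gene and barcode were deposited for 5 libraries, made by the authors with the 10x 3′ kit and Cell Ranger 6.0.0 on mm10. From these counts, kept barcodes held between 300 and 8000 genes and between 800 and 60000 UMIs, with a mitochondrial share below 15%. A class was called from at least 3 detected markers and a lead of 0.1 in the detected share of its list over every other list; 8.15% to 17.4% of kept cells per library lay near that limit. Doublets were not removed by a caller. UMIs were summed by class (20 or more cells) and library and scaled to 1000000 UMIs of the sum (CPM), with exact Poisson or binomial intervals. Within-library comparisons used edgeR 4.0.16 (quasi-likelihood test, TMM, filterByExpr, library as a block) in R 4.3.3, with Benjamini-Hochberg adjustment over all genes and a threshold of 0.05; DESeq2 1.42.0 was an alternative. Simulated data with 200 changed genes gave 63.3% (2-fold, log2 of 1) and 91.9% (log2 of 2) recovered in the Cd79a comparison, with 6.71% of calls false, and 28.6% and 72.4% in the pDC-like comparison, with 3.88% false. For shares of cells with a UMI, cells were thinned to 2000 UMIs, and those with fewer were left out. Named genes were the members, the 3 most alike genes of each, and up to 4 called genes of each list. 1 gene that this rule names is not reported here. Members and lists were chosen with earlier results of these data known. Python 3.11.15 with numpy 2.4.6, scipy 1.17.1 and pandas 2.3.3 was used.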

Additional observations from a re-analysis of the deposited data

Results flagged for a closer look

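3 cells that met the plasma-like definition exceeded the limit of 60000 UMIs and so lay outside the kept barcodes. Of these, 2 carried antibody RNA, and only the alternative with all barcodes took them in. The day 3 cell held 7002 member UMIs and the day 14 cell 6871 member UMIs, whereas no such cell was removed from the sham or day 28 library. The day 3 cell had 64036 UMIs in all and led with *Ighm*, and the day 14 cell had 63329 UMIs and led with *Igha*. The other, a day 7 cell of 75674 UMIs that led with macrophage or monocyte markers, held 33 member UMIs.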

How the results depend on the processing

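Each group has 1 library, so the libraries served as the block. Without the replicate block, 371 genes were higher and 21 lower in Cd79a cells, against 1912 and 2818, and 1652 were lower in pDC-like cells, against 3014. Leaving out 1 library at a time gave 1347 to 1614 genes higher and 1904 to 2400 lower in Cd79a cells, and 1150 to 1757 higher and 2058 to 2896 lower in pDC-like cells. All 10 members stayed higher in Cd79a cells under DESeq2, other size factors, no filter, both stricter gates and without any 1 library; without the block 8 of 9 tested did, and *Ighg2b* (6.66, adjusted p = 0.103) did not. In pDC-like cells the 5 members called stayed higher in every alternative, while uncalled members changed sign. *Ighg2b* went to 1.51 under DESeq2, 0.025 with DESeq2 size factors, 0.39 without the block and 0.033 with a 10% mitochondrial limit, and *Jchain* to 0.0064 without the block. With 1 library left out at a time, *Ighg2b* ran from -0.40 (without day 14) to 2.25 (without day 3), *Igha* from -0.24 (without day 3) to 0.82 (without day 7), *Ighg2c* from -0.50 (without day 3) to 1.72 (without day 14) and *Jchain* from -0.60 (without day 7) to 0.077 (without sham); adjusted p of the changed signs ran from 0.2465 to 0.9976. The day 28 library was not in that fit.

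The *Ighm* and *Ighd* share moved by more than its counting interval as follows. With 2 or more *Cd79a* UMIs it was 33.98% at day 7; with both *Cd79a* and *Cd79b* it was 35.02% at day 7 and 97.66% on day 28; without cells of another class it was 38.51% in sham, 66.53% at day 3 and 29.06% on day 7; a 10% mitochondrial limit gave 66.53% at day 3. With a floor at 4624 UMIs, where day 7 begins, it was 21.58%, 64.96%, 36.23% and 97.98% in sham, day 3, day 14 and day 28, and with all barcodes 40.04%, 68.95%, 31.96% and 36.25% in sham to day 14. Without plasma-like cells, a choice made once values were known, it was 99.14%, 96.61%, 94.9%, 97.28% and 95.14%, without the top cell 55.19%, 59.59%, 33.87%, 57.88% and 96.72%, and as a mean of single cells 96.5%, 95.49%, 85.69%, 92.42% and 92.25%. Subtracting the CPM of other cells gave 66.26% at day 3 and 30.88% at day 7.

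For the kappa share, the values were 98.04%, 97.97% and 98.26% at day 7 under the same 3 gates and 95.02% at day 3 with the mitochondrial limit. The UMI floor gave 97.55%, 95.15%, 97.81% and 94.77%, and all barcodes 95.07% at day 3 and 97.93% at day 14. Without plasma-like cells it was 88.66%, 91.06%, 88.56%, 91.74% and 86.45%, without the top cell 93.45%, 94.1%, 97.9%, 96.1% and 90.04%, as a mean of single cells 88.05%, 90.34%, 88.15%, 90.12% and 85.67%, and with *Iglc1* and *Iglc3* added 91.43%, 90.4%, 96.05%, 95.37% and 85.76%. Causes were not tested. The class balance of all Cd79a cells rests on 2 to 19 plasma-like cells a library.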

Other observations

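*Igha* was also detected in cDC-like cells (conventional dendritic cells), with few *Igkc* UMIs beside it at days 14 and 28. At day 14, 57 of 284 such cells held 151 *Igha* UMIs, at most 13 in 1 cell, against 22 *Igkc* UMIs in all. At day 28, 60 of 359 held 162 *Igha* UMIs against 44 *Igkc* UMIs. In sham the same class held 26 *Igha* and 26 *Igkc* UMIs, at day 3 51 and 115, and at day 7 248 and 255. The *Igha* level of cDC-like cells was 10.3 CPM at its lowest and 35.7 CPM at its highest over the 5 libraries, and the difference between libraries was not tested.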
